A study of Homo sapiens with 12 samples.

Results

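The genes described here encode the proteins of the mitochondrial ribosome (mitoribosome). They were taken as all genes whose symbol is MRPL or MRPS followed by a number and at most 1 letter from A to C, and this rule found 78 of the 58735 genes in the count table, 49 with an MRPL and 29 with an MRPS symbol. The cells were 293T4A, a human embryonic kidney 293T line with a doxycycline-inducible 4EBP1-4A, a mutant of 4EBP1 whose regulatory phosphorylation sites are changed. Cells were treated with DMSO or with doxycycline, given in the labels as 2 mg/mL, for 12 h per the labels and for 2 h per the text of the series (a longer time again in the study's own text), and then with cycloheximide for 10 min, so that both groups carried the construct and both received cycloheximide. Each group had 3 RNA-seq libraries of total RNA and 3 Ribo-seq libraries, 12 in all, and the line was described as a transduced population sorted for GFP.

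The mitoribosome sits in the mitochondrial matrix and translates the few mRNAs of mitochondrial DNA, which encode subunits of the respiratory chain and ATP synthase. Its ribosomal RNAs come from mitochondrial DNA, but all of its proteins are encoded in the nucleus, translated in the cytosol and imported. 4EBP1 binds the cap-binding protein eIF4E when it is not phosphorylated and blocks cap-dependent initiation, and mRNAs of mitoribosomal proteins are among those whose translation is known to respond to mTORC1 and the 4E-BPs. Doxycycline is a tetracycline, an antibiotic class that binds bacterial ribosomes and also slows translation by mitoribosomes. No library of doxycycline-treated cells without the construct was analysed here, so the drug and the induced protein cannot be told apart.

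By structure, 51 members belong to the large subunit, 29 with a bacterial counterpart and 22 particular to mitochondria. The small subunit has 26, of which 16 have a bacterial counterpart and 10 do not. MRPS18A and MRPS30 are counted with the large subunit, where they are found in the assembled particle in spite of their symbols. The remaining member, MRPS36, keeps its symbol but has been reassigned to the oxoglutarate dehydrogenase complex of the citric acid cycle. All 78 were protein coding in GENCODE 44 (GRCh38) and were spread over 21 chromosomes, at most 8 on 1 chromosome, with none on X or in mitochondrial DNA.

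The mRNAs of this family begin close to their start codons, and the start regions are shown because initiation is the step that 4EBP1 acts on. The 5′UTR of the canonical transcript had a median of 30.5 bases over the members, from 6 to 276, against 145 over the 14262 protein-coding genes tested in RNA-seq and 42 over the 79 cytosolic ribosomal protein genes. It was shorter than 30 bases in 38 members (48.7%), in 9.35% of the protein-coding genes and in 21.5% of the cytosolic ribosomal protein genes. The 11 letters found most often from 3 bases before the start codon of the members were AAGATGGCGGC, in 9 members (11.5%), while the next string was shared by 4. They are the core of the TISU element known from mRNAs with very short 5′UTRs. The same letters were there in 158 of 14206 protein-coding genes (1.11%) and in 0 of the 79 cytosolic ribosomal protein genes, a description only, since the string was picked for being common among the members. The shorter string AAGATGGC held the start codon of 14 members (17.9%), against 3.40% and 7.59%. These windows come from the GENCODE 44 transcripts on GRCh38, each within 1 exon and on the strand of its gene, with the 11 letters in capitals.
MRPL22, chr5:154941102-154941124, + strand: gggcgaAAGATGGCGGCggcagt
MRPL38, chr17:75904862-75904884, - strand: ggagggAAGATGGCGGCgccctg
MRPL46, chr15:88467364-88467386, - strand: gaacgaAAGATGGCGGCgcccgt
MRPL50, chr9:101398579-101398601, - strand: tcatcgAAGATGGCGGCgcgatc
MRPS10, chr6:42217836-42217858, - strand: accggcAAGATGGCGGCgcggac
MRPS18A, chr6:43687766-43687788, - strand: tttttgAAGATGGCGGCcctcaa
MRPS18B, chr6:30617857-30617879, + strand: tacgtcAAGATGGCGGCgtctgt
MRPS24, chr7:43869482-43869504, - strand: tggcccAAGATGGCGGCctccgt
MRPS30, chr5:44808954-44808976, + strand: cgggcaAAGATGGCGGCggccag
The bases after the capitals differ among the 9, and the group takes in members of both subunits.

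The first bases of the transcripts set the members apart from cytosolic ribosomal protein mRNAs, which are known as TOP mRNAs because they begin with a C and a run of pyrimidines. Promoters of the RefSeq table (GRCh38.p14, 250 bases before to 50 after the start) were matched for 69 members, and the start nearest the canonical one was used. A transcript start of C followed by 4 pyrimidines was found in 5 of the 69 (7.25%), in 47 of 63 cytosolic ribosomal protein genes (74.6%), in 5.34% of 11490 protein-coding genes tested and in 4.07% of all 35116 promoters in the table. The 5 members are shown with the first 5 transcribed bases in capitals, 10 bases before them and 15 after.
MRPL44, chr2:223957453-223957482, + strand: ccatcgttttCTCTCgtgcaatggcgtccg
MRPL45, chr17:38297158-38297187, + strand: ttcccggcggCCTTTgcgggaacaagatgg
MRPL53, chr2:74472661-74472690, - strand: tgcacgagttCTTCCggggcggaggtcacc
MRPS27, chr5:72320221-72320250, - strand: gttggctgttCCTTTtggtacgctccaaga
MRPS33, chr7:141014933-141014962, - strand: gagggcgggcCTTCCgggacgagggcgcgt
In each of the 5 a purine, G or A, lay within 3 bases of the capitals, so that the pyrimidine runs were short. For comparison, the stalk protein gene MRPL12 begins with GTCAT, and the reference reads as follows.
MRPL12, chr17:81703357-81703386, + strand: cggctagagcGTCATttccggctcgaatgc
The string CCGGAAG, the core of ETS factor motifs, was found on either strand in 30 of the 69 promoters (43.5%), against 21 of 63 cytosolic ribosomal protein promoters (33.3%), 18.4% of the protein-coding genes tested and 10.3% of all promoters. AAGATGGCGGC on either strand was found in 10 (14.5%), against 0 of 63, 2.01% and 0.849%, and 3 promoters held both strings. Of these 10 matches, 9 were the start codon sites already shown, since the window reaches past the start, and the other was MRPL36. A match describes letters in this window and is not a mapped binding site.

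RNA-seq gave 21687906 to 57824136 reads on genes per library and Ribo-seq 210186 to 1002424. Doxycycline replicate 3 of RNA-seq stood apart from the others. It had the fewest reads on genes, 5.94% of its reads were counted on genes (19.7% to 30.8% in the other 5), 88.4% were not uniquely aligned (54.9% to 69.9%), and genes of mitochondrial DNA took 5.76% of its gene reads (11.8% to 15.8%). The changes in RNA-seq were therefore examined with and without it. EIF4EBP1, the gene induced by design, had 156, 157 and 169 CPM with DMSO and 260, 281 and 267 with doxycycline, and the groups did not overlap. CPM stands for reads of a gene scaled to a common total of reads on genes per library, and RNA-seq values in CPM were also scaled with TMM factors (edgeR's normalization for library composition) unless stated otherwise. Reads of the construct and of the cells' own gene cannot be told apart. Markers of 293T cells (PAX2, LIN28B, NEFM and INA) had reads in all 6 RNA-seq libraries, while among markers of skin and blood cells KRT5, KRT14 and ALAS2 were at 0 in all 6 and the highest, KRT10, reached 5.73 CPM.

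All 78 members were detected in every RNA-seq library, with 97744 to 245317 reads on the family per library. Their summed level was 4368 ± 118 CPM with DMSO (SD, n = 3) and 4146 ± 253 with doxycycline (n = 3), and 4274, 4310 and 3855 CPM in doxycycline replicates 1 to 3. The first 2 of these lay within or near the DMSO range of 4258 to 4492, and replicate 3 below it. Without TMM factors the order of the groups turned, with 4158 ± 72.9 CPM for DMSO and 4351 ± 156 for doxycycline. In these bulk libraries, fewer cells with an mRNA and less of it per cell cannot be told apart.

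Levels between members were compared as CPM without TMM factors per kilobase of exon (RPKM), with the length taken as all annotated exons together. With DMSO the median member was at 17.3 RPKM, with quartiles at 9.67 and 28.9, and 61 of 78 lay within a factor of 3 of the median. The median of the 14262 protein-coding genes tested was 5.16, and 68 members were above it. Cytosolic ribosomal protein genes had a median of 85.6 RPKM, 4.95 times that of the members. Proteins of the 2 subunits are needed in equal numbers, and the median RPKM was 19.4 over large subunit members and 13.7 over small subunit members, or 33.9 and 29.7 with the canonical transcript as the length.

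The 4 highest members in DMSO came from both subunits. MRPL41, a mitochondria-specific protein of the large subunit (ENSG00000182154, chr9:137551879-137552555), was at 96.4 ± 4.39 RPKM (SD, n = 3). MRPS34 was at 86.4 ± 4.87, MRPS26 at 68.4 ± 2.29 and MRPL51 at 63.9 ± 4.22, all proteins without a bacterial counterpart. MRPS26 and MRPL51 differed by less than the sum of their SDs, and the other neighbours by more.
At the low end, MRPS24 (ENSG00000062582, chr7:43866558-43869893) was at 0.356 ± 0.0396 RPKM, MRPL38 at 1.48 ± 0.0743, MRPL46 at 1.61 ± 0.0578 and MRPL23 at 2.57 ± 0.109. The highest was thus 271 times the lowest, or 76.3 times with the canonical transcript as the length, and MRPS24 and MRPL38 were the lowest 2 on both scales. MRPS24 shares exons on its strand with the read-through gene URGCP-MRPS24. In all, 15 members share exons with another gene on the same strand, among them 5 of the 10 lowest members and 10 of the other 68. These 15 had a median of 9.84 RPKM, against 19.6 for the 38 members that share no exon, and 11.6 against 38.7 for all members without such sharing when the canonical transcript was the length. Whether reads that fall in 2 genes were dropped is not stated, and its part in these levels was not tested. Another 25 members share exons only with a gene on the other strand, and whether the counting used strand is not stated either, while 36 members have numbered pseudogenes in the table, 79 in all, which can hold or hide reads of the parent gene.

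**Figure D1:**
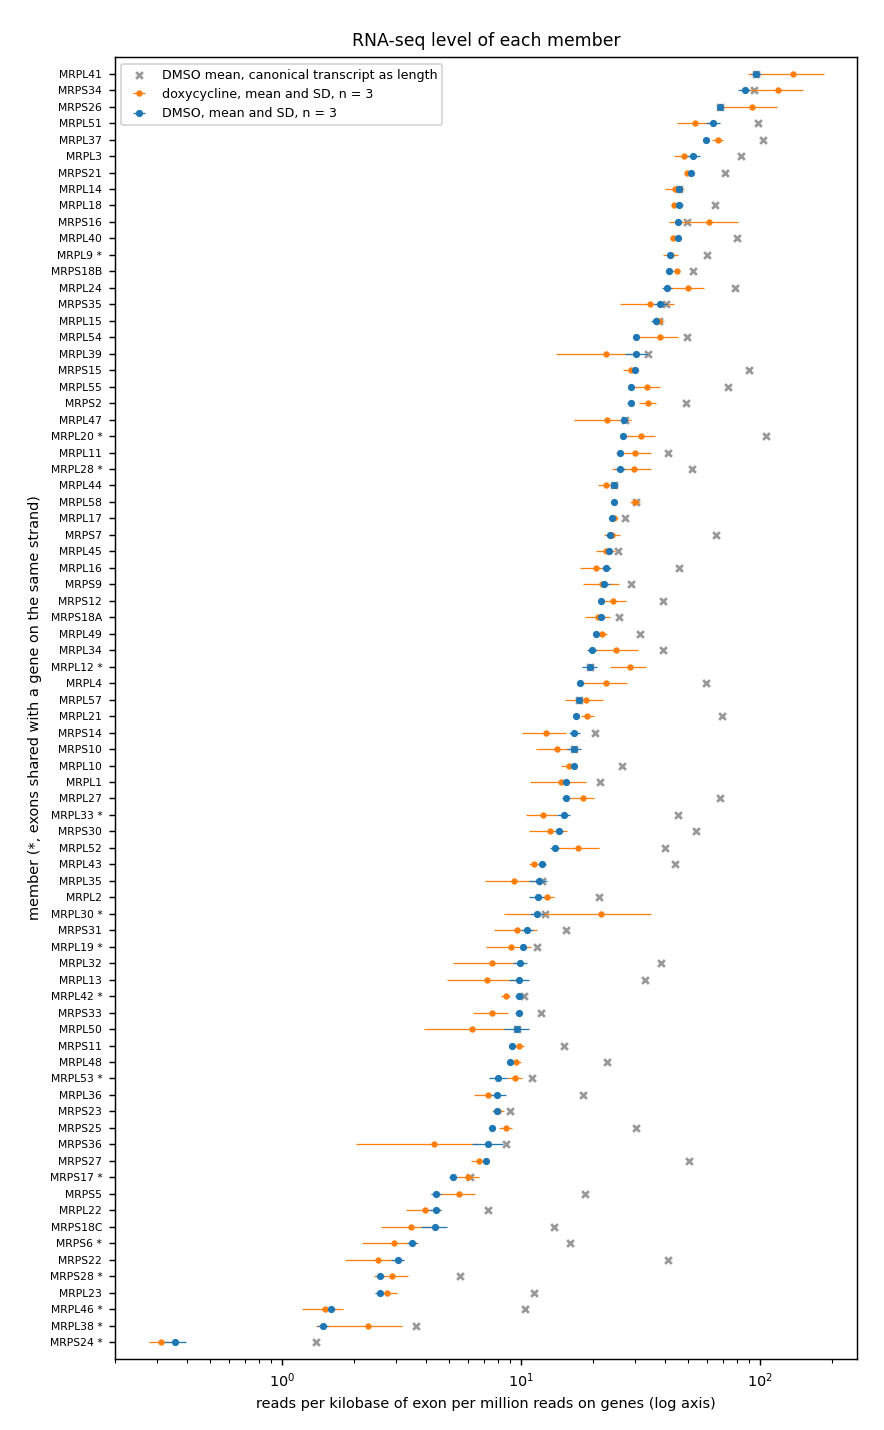
RNA-seq level of each of the 78 members in CPM per kilobase of exon (RPKM, log axis), ordered by the DMSO mean; blue and orange points are means of 3 libraries with bars for the SD, grey crosses use the canonical transcript as the length, and an asterisk marks exons shared on the same strand. The members run from MRPS24 at 0.356 to MRPL41 at 96.4 with DMSO, and the quartiles are 9.67 and 28.9.

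The 3 DMSO libraries agreed closely for this family, and the 3 doxycycline libraries did so only without replicate 3. The coefficient of variation of a member had a median of 4.21% with DMSO (0.373% to 15.6%), of 14.97% with doxycycline, and of 4.40% over doxycycline replicates 1 and 2. Replicate 3 was outside the range of the other 5 libraries for 71 of 78 members, below it for 52 and above it for 19. Against the mean of replicates 1 and 2 it was lower for 57 members, with a median log2 ratio of -0.30, and 6 members differed by more than 1 on the log2 scale. MRPS36 was the farthest below, at 0.258 of the level of replicates 1 and 2, followed by MRPL39 at 0.393, MRPL50 at 0.404, MRPL13 at 0.453 and MRPL32 at 0.465. MRPL30, a large subunit protein with a bacterial counterpart, was the only one of the 6 above, at 2.24 times. These 6 were named after their values were seen.

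**Figure D2:**
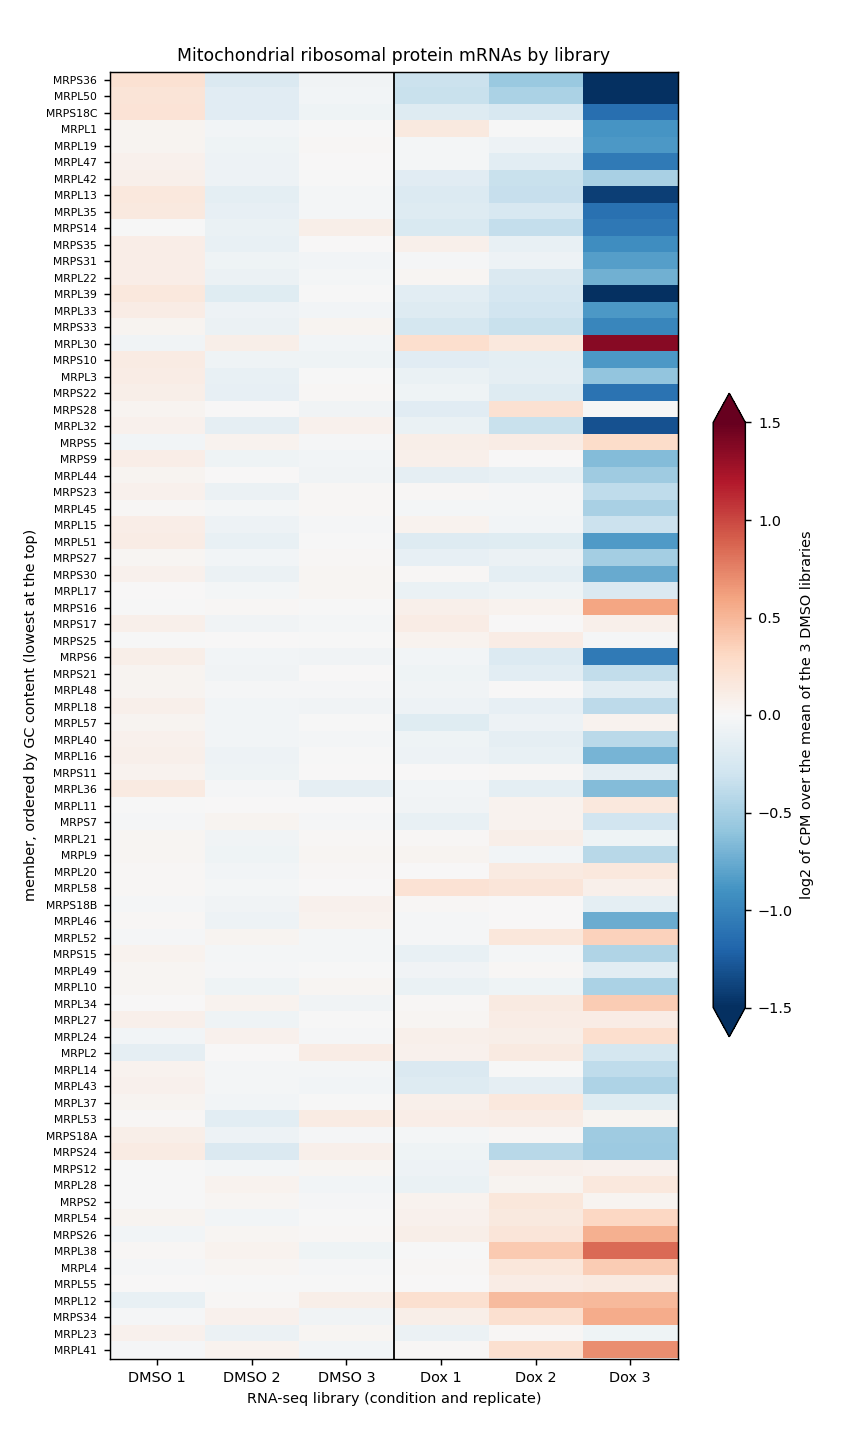
Log2 of CPM over the mean of the 3 DMSO libraries for the 78 members (rows, lowest GC content at the top) in the 6 RNA-seq libraries (columns). Doxycycline replicate 3 is the column of strong colors, with 52 members below and 19 above all other libraries, and MRPL30 stands out in red among blue rows of low GC content.

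The deviation of doxycycline replicate 3 ran with the base composition of the mRNAs. GC content of the canonical transcript ranged from 34.8% for MRPS36 to 66.7% for MRPL41, with a median of 48.2% that was close to the 48.7% of all protein-coding genes tested. Across the 78 members the log2 ratio of replicate 3 to replicates 1 and 2 had a Spearman's rho of 0.69 and a Pearson's r of 0.66 with GC content, and across the 14262 protein-coding genes the rho was 0.80, where all points share the same libraries. Of the 39 members of lower GC content, 35 were lower in replicate 3, with a median log2 ratio of -0.66, and for the 39 of higher GC content the median was -0.07. The ratio of DMSO replicate 1 to DMSO replicates 2 and 3 ran the other way, with a rho of -0.54 across members, so that base composition also went with differences within the DMSO group.

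The first comparison asked whether member mRNAs changed with doxycycline over all 6 RNA-seq libraries. No member changed past the threshold, and none of the 20552 genes tested did (0.0%), in edgeR's quasi-likelihood test at an adjusted p of 0.05 (Benjamini-Hochberg over all genes tested). DESeq2's Wald test called 2 genes lower and 1 higher, and edgeR's likelihood ratio test 7 lower and 5 higher, with 0 members among them. At an unadjusted p under 0.05 there were 3 members lower (MRPL42, MRPS14 and MRPS33) and 1 higher (MRPL12), against 4.13% and 9.58% of all genes tested. The median log2 fold change, doxycycline over DMSO, was -0.14 over members and -0.04 over all genes tested, and single members ranged from -0.82 to 0.70. When the libraries were scaled by their totals alone, these medians were -0.01 and 0.10, so the position of the members relative to zero depends on the scaling. The 95% interval of the change lay within 0.5 of zero on the log2 scale for 37 members and within 1 for 70.

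The doxycycline values of 20 members lay all below the DMSO values (25.6%, against 20.8% of all genes tested), and those of 10 lay all above them (12.8%, against 17.7%). MRPS36, the member of lowest GC content, had 14.03, 10.3 and 11.6 CPM with DMSO and 9.58, 8.16 and 2.29 with doxycycline, a log2 fold change of -0.82 ± 0.43 (SE, adjusted p = 0.326). MRPL50, a large subunit protein without a bacterial counterpart, had 38.6, 30.01 and 32.7 CPM against 26.7, 24.2 and 10.3, a log2 fold change of -0.72 ± 0.32 (adjusted p = 0.326). In both, the third doxycycline value was less than that of the other libraries by a wide margin. The next 4 in order were MRPL13 (log2 fold change -0.56), MRPS14 (-0.51), MRPS33 (-0.49) and MRPL35 (-0.46), each lowest in doxycycline replicate 3 and each with a GC content of 39.6% to 41.4%.

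On the other side, MRPL30 (ENSG00000185414, chr2:99181152-99199561) had 56.6, 62.2 and 57.0 CPM with DMSO and 69.6, 65.1 and 150.8 with doxycycline, a log2 fold change of 0.70 ± 0.31 (adjusted p = 0.326). It shares exons on its strand with 2 other genes. MRPL12, a stalk protein that contacts translation factors on the ribosome and has been reported to bind mitochondrial RNA polymerase (ENSG00000262814, chr17:81703367-81707517), had 19.1, 20.9 and 21.8 CPM against 24.4, 28.7 and 28.9, a log2 fold change of 0.41 ± 0.12 (adjusted p = 0.326). Its 3 doxycycline values were alike, whereas those of MRPL30 were set by replicate 3. The others in this group were the small subunit proteins MRPS34 (log2 fold change 0.31), MRPS26 (0.28) and MRPS16 (0.26) and the large subunit protein MRPL54 (0.18). MRPS16 resembled MRPL30 in its values, with 133 to 135 CPM with DMSO and 141, 139 and 201 with doxycycline.

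Without doxycycline replicate 3, edgeR's quasi-likelihood test called 6 of 78 members (7.69%, against 7.08% of 21234 genes tested), 5 lower and 1 higher. The background was 3.83% lower and 3.25% higher, so that the share of members called was near that of all genes. The groups did not overlap for 21 members on the lower side (26.9%, against 22.7% of all genes tested) and for 12 on the higher side (15.4%, against 20.3%). The median log2 fold change was -0.02 over members and -0.01 over all genes, and the extremes were -0.44 and 0.36. With the smaller spread, the 95% interval lay within 0.5 of zero on the log2 scale for 74 members and within 1 for all 78.

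The 5 members that fell came from both subunits. MRPS36 (ENSG00000134056, chr5:69217760-69230158) fell by 0.44 on the log2 scale (SE 0.12, adjusted p = 0.0347), and MRPL50 (ENSG00000136897, chr9:101387633-101398618) fell by 0.41 (SE 0.10, adjusted p = 0.0209). MRPS33, a small subunit protein particular to mitochondria (ENSG00000090263, chr7:141002610-141015228), had 55.4, 50.8 and 55.5 CPM with DMSO and 45.1 and 42.7 in doxycycline replicates 1 and 2, scaled with the factors of all 6 libraries. It fell by 0.30 (SE 0.07, adjusted p = 0.0245). MRPS14, the counterpart of a bacterial protein of the small subunit head (ENSG00000120333, chr1:175010789-175023425), had 45.6, 42.7 and 48.5 CPM against 38.9 and 35.5, and fell by 0.30 (SE 0.08, adjusted p = 0.0331). MRPL42 (ENSG00000198015, chr12:93467514-93516214) had 178.5, 161 and 168 CPM against 150 and 134, and fell by 0.25 (SE 0.07, adjusted p = 0.0352). None of the 5 overlapped between groups. MRPS36, MRPL50, MRPS33 and MRPL42 each have 3 to 5 numbered pseudogenes in the table, and MRPS14 shares exons with CACYBP on the other strand. MRPL42 also shares exons with RN7SL737P on its own strand.

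MRPL12 was the 1 member that rose, by 0.36 on the log2 scale (SE 0.09, adjusted p = 0.0246). It shares exons on its strand with ENSG00000262660. MRPL10, which anchors the stalk, had a log2 fold change of -0.08 (95% interval -0.23 to 0.06) without doxycycline replicate 3 and of -0.20 (-0.52 to 0.11) over 6 libraries, or -0.15 and -0.30 when the model was adjusted for GC content. Its doxycycline values lay below its DMSO values in both sets, and it was not called in any of these fits. MRPL11, at the base of the stalk, was at 0.00 (-0.14 to 0.14) and 0.06 (-0.18 to 0.29), and its groups overlapped.

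The calls without doxycycline replicate 3 changed with the further library left out, and they ran with base composition. Leaving out DMSO replicate 1 as well left 0 members called, and leaving out DMSO replicate 3 left MRPL50, MRPS36 and MRPL12. Without DMSO replicate 2 all of the calls stayed and others were added, to 11 lower and 2 higher. The number of all genes called also changed with the library left out. The share over all genes is not given for these fits, so their counts are not read as a result about the members. Leaving out doxycycline replicate 1 or 2 leaves 1 doxycycline library, and calls from such fits are not listed here. When the libraries were scaled by their totals alone, 1 member was lower (MRPL50) and 3 higher (MRPL12, MRPL30 and MRPL58). That was 5.13% of members, against 8.26% of all genes tested. All 5 members that fell had a GC content between 34.8% and 41.4%, and MRPL12 had 64.6%. The log2 fold change without doxycycline replicate 3 had a Spearman's rho of 0.59 with GC content across members and of 0.69 across the 14262 protein-coding genes.

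When a smooth of each library's log2 CPM on GC content was put into the model as an offset, none of the 6 members was still called. The smooth was fitted without regard to treatment, so it also takes out any treatment effect that runs with GC content. A technical GC trend and such an effect cannot be told apart here. MRPL12 was then at 0.16 (adjusted p = 0.169), MRPS33 at -0.18 (adjusted p = 0.0552), MRPS36 at -0.19 (adjusted p = 0.265), MRPL50 at -0.16 (adjusted p = 0.182), MRPS14 at -0.15 (adjusted p = 0.164) and MRPL42 at -0.08 (adjusted p = 0.288), log2 fold changes in edgeR's quasi-likelihood test. That model called 4 other members, 2 higher and 2 lower (1.92% and 1.86% of all genes tested, 3.78% in all), MRPL30 at 0.31 (adjusted p = 0.0131) and MRPL1 at 0.27 (adjusted p = 0.0178) as higher and MRPL43 at -0.25 (adjusted p = 0.0282) and MRPL28 at -0.17 (adjusted p = 0.0432) as lower. The rho with GC content was then -0.18 across members and 0.05 across protein-coding genes. Over all 6 libraries the same offset left 0 members and 0 genes called.

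**Figure D3:**
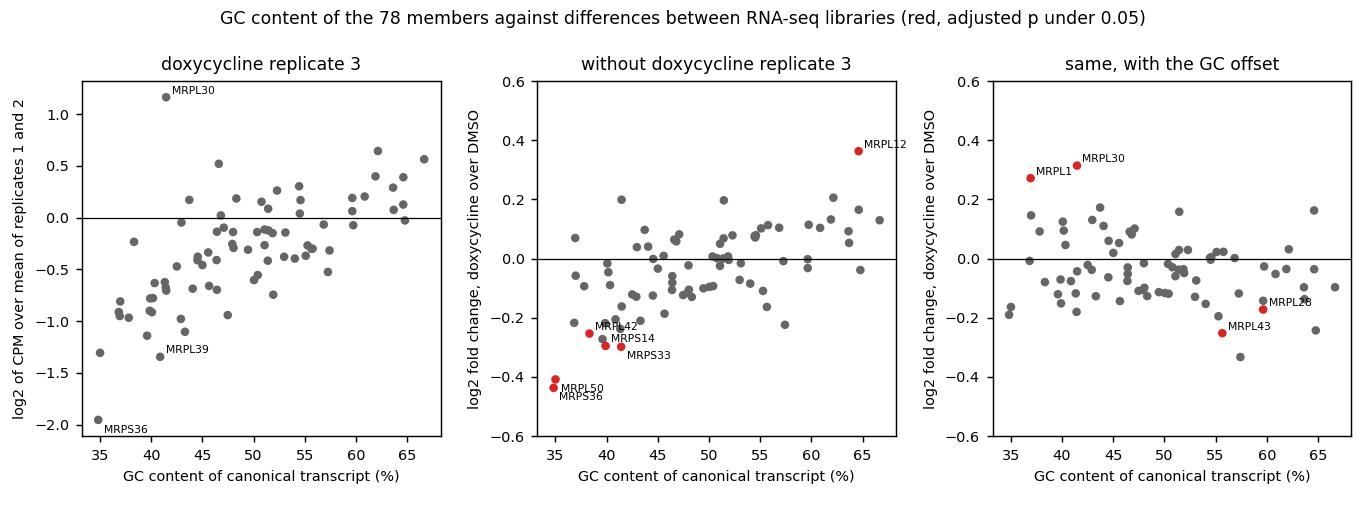
GC content of the canonical transcript of the 78 members against the log2 ratio of doxycycline replicate 3 to replicates 1 and 2 (left), and against the log2 fold change without replicate 3 before (middle) and after (right) the GC offset; red marks an adjusted p under 0.05. The left and middle panels slope upward (rho 0.69 and 0.59), the 6 called members lie at both ends of the slope, and 4 other members are called at the right.

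**Figure D4:**
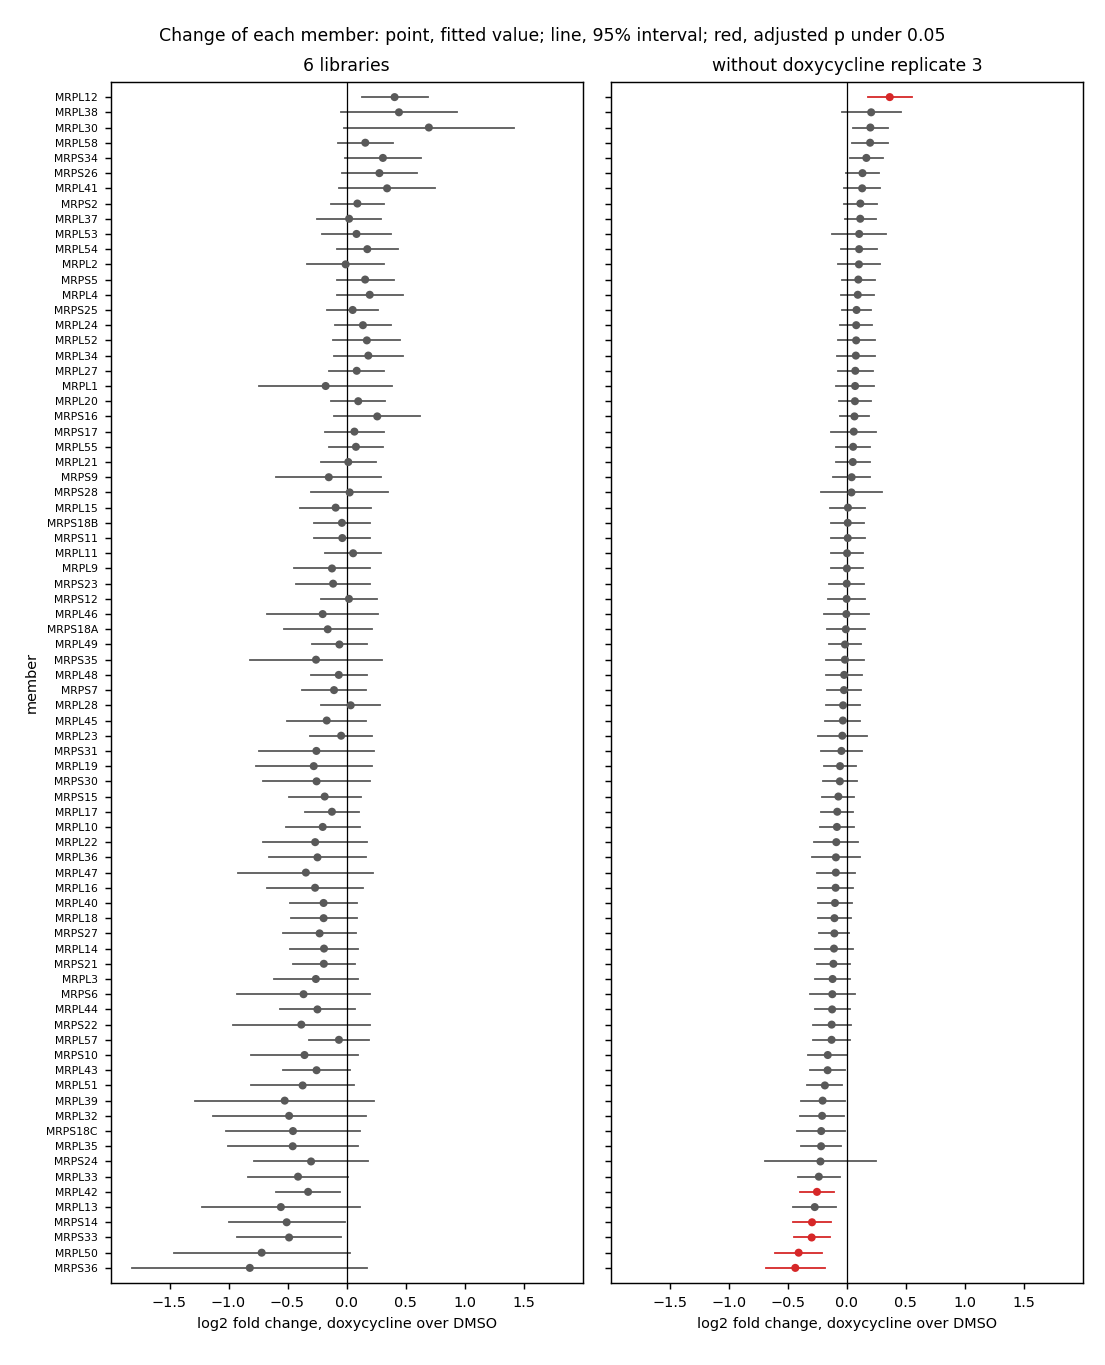
Log2 fold change, doxycycline over DMSO, of each of the 78 members with its 95% interval, over 6 libraries (left) and without doxycycline replicate 3 (right), ordered by the right panel; red marks an adjusted p under 0.05. At the left no member is red and intervals are wide, and at the right 5 members are lower, 1 is higher, and 74 intervals lie within 0.5 of zero.

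By subunit, the calls without doxycycline replicate 3 were 2 lower and 1 higher of 51 large subunit members (5.88%) and 2 lower of 26 small subunit members (7.69%), against 7.08% of all genes tested, with MRPS36 as the remaining one. The median log2 fold change was -0.03 and -0.01, and over 6 libraries it was -0.12 and -0.13. MRPS18A, MRPS18B and MRPS18C are 3 paralogs of 1 bacterial protein, of which MRPS18B and MRPS18C are used in the small subunit. MRPS18C (GC content 36.8%) had 25.8, 19.98 and 21.5 CPM with DMSO and 19.6, 19.00 and 10.3 with doxycycline, a log2 fold change of -0.45 ± 0.24 over 6 libraries (adjusted p = 0.328) and -0.22 ± 0.10 without replicate 3 (adjusted p = 0.169). MRPS18A (57.3%) and MRPS18B (51.9%) overlapped between the groups and were at -0.16 and -0.04 over 6 libraries and at -0.01 and 0.01 without replicate 3. MRPL45, which anchors the mitoribosome to the inner membrane, had 40.8 to 42.3 CPM with DMSO and 40.8, 40.9 and 29.7 with doxycycline, at -0.17 (95% interval -0.50 to 0.17) and -0.03 (-0.18 to 0.11).

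The start features described above were compared with these changes as medians only. The 14 members whose start codon lay in AAGATGGC had a median log2 fold change of -0.22 over 6 libraries and of -0.05 without replicate 3, and the other members -0.10 and -0.01. The 5 members with a pyrimidine start had -0.23 and -0.11, with MRPS33 the 1 called, and the 64 without it -0.12 and -0.02. The 30 members with CCGGAAG in the promoter had -0.14 and -0.03, and the 39 without it -0.15 and -0.02. The 10 with AAGATGGCGGC in the promoter had -0.25 and -0.07, and the 59 without it -0.11 and -0.02. None of these differences between medians was tested.

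Other parts of the mitochondrial translation system were described from fixed lists. The 5 mitoribosomal proteins without an MRP symbol (DAP3, AURKAIP1, CHCHD1, PTCD3 and GADD45GIP1) had 0 called in either fit, with log2 fold changes of -0.21 to 0.20 without doxycycline replicate 3. Of 29 assembly factors, 0 were called over 6 libraries and 1 was called higher without replicate 3 (3.45%). This was GTPBP6, a GTPase that splits mitoribosomes and helps to mature the large subunit, which rose by 0.30 on the log2 scale (adjusted p = 0.0203) and was at 0.09 with the GC offset (adjusted p = 0.287). Of 11 translation factors, 1 was lower without replicate 3, GFM2, the elongation factor G of ribosome recycling, which fell by 0.29 (adjusted p = 0.0242), was at -0.17 with the GC offset (adjusted p = 0.0403) and at -0.53 over 6 libraries (adjusted p = 0.326). The offset also called 2 assembly factors lower, NDUFAB1 (-0.23, adjusted p = 0.0470) and MPV17L2 (-0.24, adjusted p = 0.0457). Cytosolic ribosomal protein genes had 4 lower and 1 higher of 79 without replicate 3 (6.33%, against 7.08% of all genes tested), 8 lower and 0 higher with the GC offset (10.1%, against 3.78%), and 0 lower and 1 higher with scaling by library totals alone. Their median log2 fold change was -0.07 without replicate 3 and -0.16 over 6 libraries, where 0 were called.

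With TMM factors, the ribosomal RNAs of the mitoribosome were lower in the doxycycline libraries, MT-RNR1 only narrowly in replicate 1. MT-RNR2, the large subunit RNA, was at 138840, 119814 and 136820 CPM with DMSO and at 110303, 91574 and 35942 with doxycycline. MT-RNR1, the small subunit RNA, was at 24887, 25014 and 26928 CPM with DMSO and at 24803, 22467 and 12016 with doxycycline. On this scale neither overlapped between groups, and 20.8% of all genes tested were likewise all lower. As a share of reads on genes without TMM factors, MT-RNR1 in doxycycline replicate 1 lay within the DMSO range. Over 6 libraries their log2 fold changes were -0.73 and -0.37, with adjusted p = 0.326 and 0.364. Without doxycycline replicate 3, MT-RNR2 fell by 0.39 (adjusted p = 0.00778) and MT-RNR1 was at -0.12 (adjusted p = 0.203), and with the GC offset they were at -0.30 (adjusted p = 0.0200) and -0.07 (adjusted p = 0.462).

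Ribo-seq, which counts mRNA fragments protected by ribosomes, was meant to show whether these mRNAs were translated less when 4EBP1-4A was induced. Only 136 Ribo-seq reads fell on the 78 members over 6 libraries, against 1179029 RNA-seq reads. By library there were 7, 51 and 25 reads with DMSO and 24, 16 and 13 with doxycycline, on all members together. As a share of reads on genes this was 43.1 ± 24.6 CPM with DMSO (SD, n = 3) and 33.7 ± 8.55 with doxycycline, and the groups overlapped. These Ribo-seq values were not scaled with TMM factors, and on that scale the members took 4158 CPM in the DMSO RNA-seq libraries. Without DMSO replicate 2 the Ribo-seq difference turned, with doxycycline 4.54 CPM above DMSO.

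No Ribo-seq read was counted for 49 members, 1 to 3 reads for 22, 4 to 9 for 5 and 10 or more for 2. A count of 0 allows up to 3 reads, which is 2.99 to 14.3 CPM in these libraries and covers counting error only. MRPL37, a large subunit protein without a bacterial counterpart, had the most RNA-seq reads of the members with no Ribo-seq read, 44688, and 160 ± 4.58 CPM in DMSO RNA-seq. So translation of most members was not measurable in these libraries. Ribo-seq reads on genes were concentrated, with 86.0% to 94.5% of a library's on its top 10 genes, against 8.41% to 18.2% in RNA-seq. At least 10 reads were reached by 233 to 497 genes per Ribo-seq library. Why so few reads fell on the members was not tested.

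The 2 members with the most reads held 71 of the 136 (52.2%). MRPL11, the protein at the base of the stalk (ENSG00000174547, chr11:66435075-66466738), had 1, 18 and 4 reads with DMSO and 13, 2 and 3 with doxycycline. MRPL27, which lies near the peptidyl transferase center (ENSG00000108826, chr17:50367857-50373207), had 5, 2 and 9 reads against 5, 5 and 4. In MRPL11 a single library, DMSO replicate 2, held 43.9% of the reads, while those of MRPL27 were spread over all 6 libraries. In RNA-seq these 2 were at 69.4 ± 0.259 and 48.9 ± 2.35 CPM with DMSO. MRPL55 followed with 8 reads, MRPS27 and MRPS2 with 7 each and MRPL4 and MRPS26 with 4 each. The 7 reads of MRPS27 and the 4 of MRPS26 all came from DMSO replicate 2, as did 7 of the 8 of MRPL55.

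Translation efficiency (TE), the Ribo-seq signal relative to RNA-seq, could be tested for 2 members of the 1334 genes that had at least 10 reads in each assay. The change of TE was -0.08 on the log2 scale for MRPL11 (adjusted p = 0.990) and 0.01 for MRPL27 (adjusted p = 0.998) in edgeR's quasi-likelihood test of the interaction over 12 libraries. Neither was called, and 0.15% of all genes tested were, while 20.8% of these genes and 0 of the 2 members had an unadjusted p under 0.05. DESeq2's Wald test and edgeR's likelihood ratio test called 0 members as well. The sign of the change turned with the library left out for both, and for MRPL27 with the scaling too.

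**Figure D5:**
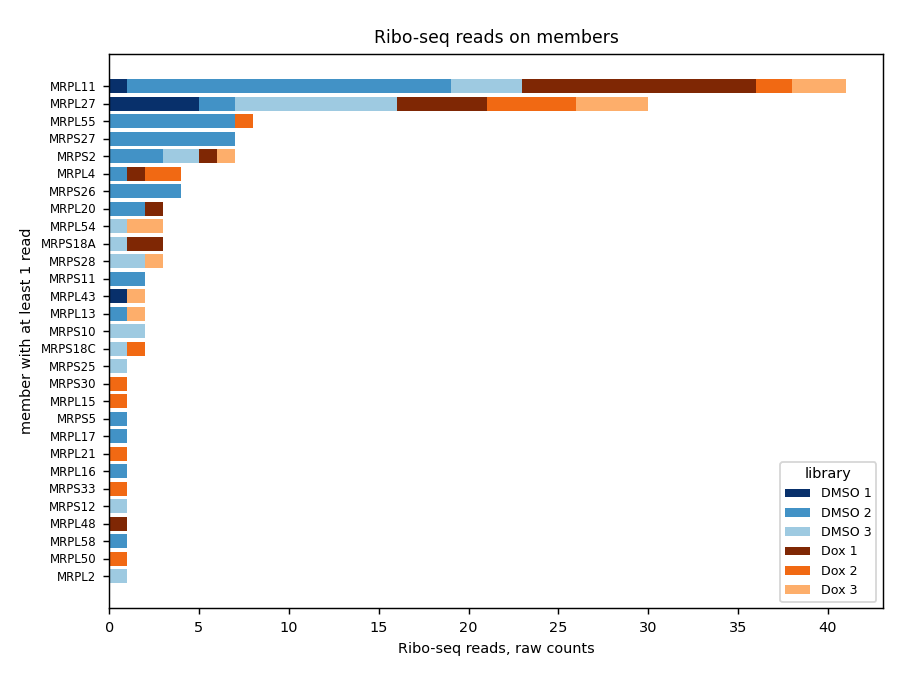
Ribo-seq reads (raw counts) on the 29 members with at least 1 read, stacked by library, with DMSO in blue and doxycycline in orange shades. MRPL11 with 41 and MRPL27 with 30 reads hold 52.2% of the reads, and most other members have 1 to 3.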

How the data were processed

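RNA-seq and Ribo-seq were examined in 12 libraries, 3 per assay and condition, grouped by the sample labels; p-values measure the spread between samples, which the study calls biological replicates. Per the labels and methods, the authors used STAR to map both assays, and only reads with a single alignment, lying in exons, were kept. Removal of ribosomal RNA reads is described in the methods for Ribo-seq, and no such step is named there for RNA-seq. The deposited values are raw counts. The labels name GRCh37 and Ensembl 75, the methods GRCh38, and the counting's strand setting is not given in the sources used here. Of 58735 genes, 58207 (99.1%) matched GENCODE 44 (GRCh38), which gave coordinates, lengths and GC content. The deposited table of TE holds the authors' dispersion, p-value, q-value, TE and fold change per gene, and only its symbols were used.

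Rows that name no gene (69.2% to 94.1% of RNA-seq reads, 97.1% to 99.1% of Ribo-seq reads) stayed out of library sizes. They include rows named for ERCC spike-in RNAs, with 13830 to 74191 reads per RNA-seq library, which were not used for scaling. Genes with at least 10 reads in 3 libraries (2 without doxycycline replicate 3; for TE, 10 reads over each assay's 6) entered edgeR 4.0.16 (R 4.3.3, limma 3.58.1; TMM, glmQLFTest), and intervals are 95%. Every fit covered all genes. The main fits with and without doxycycline replicate 3, the GC offset over 6 libraries and the TE fit were also run on simulated counts. Those counts held large known changes, no GC trend and no deviant library, so they do not test the fits under these conditions. The other settings were not simulated. Alternatives were DESeq2 1.42.0, other scalings, filters and lengths, a replicate block and libraries left out. The GC offset (lowess, span 0.3), the canonical length and leaving out a second library were chosen after seeing the data. Python 3.11.15, numpy 2.4.6, scipy 1.17.1, pandas 2.3.3 and matplotlib 3.10.9 were used.

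Members and lists were chosen with earlier results of these data known. Named members are up to 6 each way by fold change among those whose groups do not overlap, those called without doxycycline replicate 3, the 4 highest and 4 lowest levels, 6 with most Ribo-seq reads, and MRPS18A, MRPS18B, MRPS18C, MRPL10, MRPL11, MRPL12, MRPL45 and MRPS36; others were named after their values were seen. No pair of libraries held identical counts.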

Additional observations from a re-analysis of the deposited data

How the results depend on the processing

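Over 6 libraries, 0 members were called in each direction under the other scalings, filters, tests and the GC offset, and with any single library left out except doxycycline replicate 3, which gave 5 lower and 1 higher, so these counts ranged from 0 to 5 and from 0 to 1. The median over members stayed below zero in all of these. Signs turned for MRPS34 (-0.092), MRPS26 (-0.053) and MRPL54 (-0.12) with the GC offset and for MRPS18B with library totals (0.10) or a library left out (range -0.063 to 0.0098).

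Without doxycycline replicate 3, members called lower and higher were 2 and 2 with the GC offset and 1 and 3 with library totals. DESeq2's Wald test kept the calls of the main fit and added MRPL13 as lower and MRPL30 as higher. Its number over all genes is not given here. With 1 more library left out they ranged from 0 to 11 and from 0 to 2, and a lone doxycycline library was assumed to vary like the DMSO group. All genes called were 813 lower and 691 higher, 395 and 408 with the GC offset, 333 and 1420 with library totals, and 7 and 2 to 1739 and 1345 with a library left out. The median over members was 0.042 with library totals and -0.042 to -0.0054 with a library left out. Signs turned for MRPL11 (-0.029), MRPS18B (-0.036) and MRPL45 (0.019) with the GC offset and for MRPS18A (0.058) and MRPL45 (0.032) with library totals. With a library left out, MRPL11 ranged from -0.054 to 0.055, MRPS18A from -0.041 to 0.035 and MRPS18B from -0.014 to 0.045.

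Whether replicate numbers pair the RNA-seq libraries could not be told. Deviations from a group mean sum to zero within the group, and doxycycline replicate 3 stands far from the others, so their correlations cannot decide it. Deviations of same-numbered libraries from their group means had correlations across genes of 0.46, -0.44 and 0.03, and replicate 3 alone matched its own number best. With the replicate block, 0 members and 0 genes were called over 6 libraries. Without doxycycline replicate 3 the block gave 14 members lower and 5 higher, with 2559 and 2066 genes in all.

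The TE change of MRPL27 was -0.30 with DESeq2's Wald test and with its size factors, -0.42 with library totals and -0.40 to 0.34 with a library left out. That of MRPL11 was 0.043 with the replicate block and -1.33 to 1.43 with a library left out. With no filter 29 members were tested and 0 called. The median level with DMSO was 22.5 RPKM over the longest transcript, 32.2 over the canonical transcript and 20.4 without genes of mitochondrial DNA in the library size. The cause of these changes was not tested.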
